A study of Dugesia japonica with 12 samples.

Results

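Whole planarians after 5 days in the herbicide glyphosate were set against whole planarians after 1 day in it, which spans the sampled course of change within exposed worms. Both groups were Dugesia japonica, a freshwater flatworm, of the clonal strain Dj-NH, reproduced asexually in the laboratory and kept in glyphosate at 64 mg per L, which the labels give as a fraction of the lethal concentration. The groups were chosen by the labels and held 6 of the 12 libraries of the series, 3 from day 5 and 3 from day 1. The other 6 libraries came from worms after 3 days of exposure and from unexposed worms, with 3 each. The labels do not say how many worms went into a library, whether replicate libraries were grown as separate cultures, or on which day the unexposed worms were sampled. The p-values therefore measure the scatter among the libraries at hand, and part of it may be technical.

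Planarians replace their tissues from a pool of dividing stem cells, the neoblasts, and a whole worm also holds gut phagocytes, muscle, neurons and ciliated epidermis. Glyphosate blocks an enzyme of the shikimate pathway, with which plants and many microbes make aromatic amino acids and which animals lack. In animals it has been studied for oxidative stress, which cells meet with glutathione, antioxidant enzymes, metal-binding proteins and chaperones. In RNA from whole worms, fewer cells of a type and less RNA per cell cannot be told apart.

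Levels are in TPM, a measure of transcript abundance that sets every library to about the same total. The assembly lists 30535 genes, and the 27329 that reached 1 TPM in 3 or more libraries were tested. Sequencing depth is unknown, because TPM keeps none. Genes are named here by identifier and by the protein they resemble most. That resemblance does not show from which organism an RNA came. The 6 libraries held 20006 to 23249 genes at 1 TPM or more, all with similar profiles. Over genes, which are not independent replicates, Pearson's r of log2 values was 0.918 to 0.941 within day 5, 0.930 to 0.942 within day 1 and 0.894 to 0.925 between the groups. Transcripts of the neoblast, gut, muscle, neural and ciliary marker lists were all present. Neoblast and germ granule markers summed to 633 ± 27.1 TPM at day 5 and 772 ± 96.8 TPM at day 1 (SD, n = 3 each). The most abundant transcript, which has no hit, held 30.004 ± 1.86% of the total at day 5 and 38.7 ± 5.86% at day 1. The next, also without a hit, held 20.8 ± 3.55% at day 5 and 4.74 ± 1.94% at day 1 (both two-sided exact permutation p = 0.1, the smallest that 3 against 3 libraries allow). These shares enter every TPM value, and their part in the results was not tested beyond the rescaling given below.

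Between day 5 and day 1, worms differed in a small set of transcripts, most of them lower at day 5 in TPM as deposited. That split depended on the scaling, with 59 higher and 64 lower after rescaling without the 2 most abundant transcripts. Transcripts like a ubiquitin-activating E1 enzyme and TNF receptor-associated factor 3 rose, as did 2 metallothionein-like transcripts with a plant Swiss-Prot hit and glutamate cysteine ligase. The falls included 3 fibrillar collagens, the mitochondrially encoded ND3, 5 of 10 histones with ciliate hits and 6 of 8 mitochondrial transcripts with bovid hits. Leaving out single libraries ended the calls of the ligase, the collagens, ND3 and all 6 mitochondrial transcripts with bovid hits. In all, 134 of 27329 genes (0.49%) had a Benjamini-Hochberg adjusted p under 0.05 in limma, 27 of them higher at day 5 (0.0988%) and 107 lower (0.392%). An unadjusted p under 0.05 was found for 2793 genes. The log2 fold changes of the called genes, computed on log2(TPM + 1) and so too small for genes of low level, ran from -4.81 to 4.54, and the median of all tested genes was -0.03. In all 134 the 3 day 5 and 3 day 1 values did not overlap, as was also so for 6.11% of all tested genes on the higher side and 11.1% on the lower side.

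The called transcripts were mostly short and many had no hit. Their median length was 400.5 bases, and 72 of the 134 had no hit, 14 of them higher and 58 lower at day 5. A flatworm protein was the best hit of 8 called genes, 3 higher and 5 lower, out of 4156 tested (0.192%). The 12 called genes with a bovid hit (cattle and relatives), of 51 tested, and the 8 with a ciliate hit, of 72 tested, were all lower at day 5. By contrast, 6 of the 7 called with a plant hit, of 616 tested, were higher. Of the 27 higher genes, 10 stood below 1 TPM on average at day 1, and of the 107 lower genes, 34 stood below 1 TPM on average at day 5.

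The split between higher and lower genes depended on the scaling. It was 27 higher and 107 lower as deposited, but 86 and 101 with quantile normalization and 51 and 92 with median-ratio scaling. When TPM were rescaled with the 2 most abundant transcripts removed, 59 genes were higher and 64 lower, and the median of all genes moved to 0.11. Without an intensity trend in the fit it was 30 and 60, and among flatworm-hit genes alone 3 and 4. Each of the 6 compared libraries moved the count by more than 1.5 times when left out. Without day 5 replicates 1, 2 and 3 in turn, 50, 77 and 54 genes were called. Without day 1 replicates 1, 2 and 3 in turn, 57, 66 (22 higher, 44 lower) and 67 were called.

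**Figure D1:**
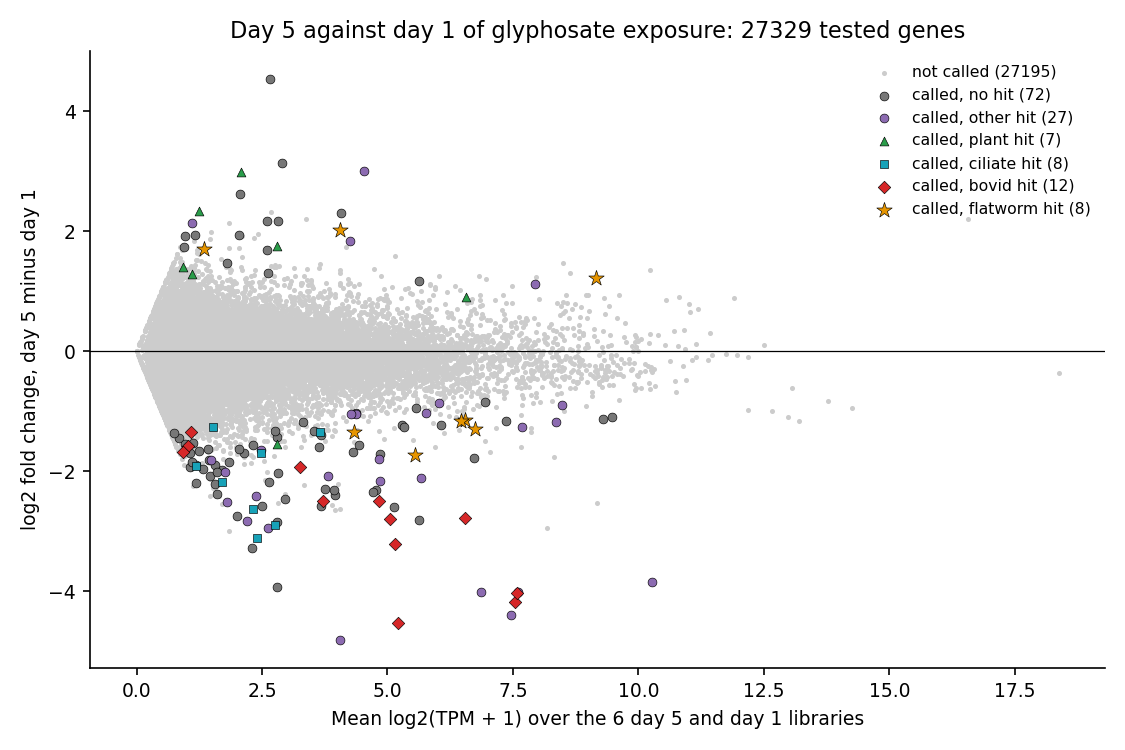
Log2 fold change (day 5 minus day 1, y axis) of each tested gene against its mean log2(TPM + 1) over the 6 libraries (x axis), with the 134 called genes coloured by the organism group of their best hit. The 107 lower calls lie below the zero line and the 27 higher calls above it; all bovid-hit and ciliate-hit calls are below.

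The rule for named rises was met by 7 genes. The largest rise was that of TRINITY_DN34907_c1_g2, which resembles the E1 enzyme that activates ubiquitin in the first step of its conjugation. It had 59.3, 64.3 and 71.1 TPM at day 5, against 9.22, 6.42 and 6.18 TPM at day 1, an 8.92-fold rise of the means (log2 fold change 3.01, SE 0.29, adjusted p = 8.43e-05). The 3 day 5 libraries lay close together and far above those of day 1; day 3 averaged 70.1 TPM, near day 5, and unexposed worms 10.3 TPM, near day 1. The transcript has only 234 bases and resembles a protein of fission yeast in Swiss-Prot. It was the 1 called among 275 tested ubiquitin genes, beside 0.49% of all genes.

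Metallothioneins are small cysteine-rich proteins that bind zinc, copper and cadmium. TRINITY_DN23386_c0_g2, whose Swiss-Prot hit is a type 3 metallothionein-like protein of a plant, had 11.5, 9.68 and 11.7 TPM at day 5, against 0.37, 0.73 and 0.44 TPM at day 1 (log2 fold change 2.99, SE 0.24, adjusted p = 1.86e-05). The same Swiss-Prot hit was found for TRINITY_DN23911_c0_g1, which had 13.3, 11.8 and 10.3 TPM at day 5, against 2.84, 3.65 and 2.04 TPM at day 1 (log2 fold change 1.75, SE 0.24, adjusted p = 0.00215). Both were as high at day 3 (11.6 ± 2.31 and 14.2 ± 2.74 TPM) and as low in unexposed worms (0.360 ± 0.180 and 3.71 ± 0.931 TPM), so the step lay between day 1 and day 3. Of 13 tested metallothionein transcripts these 2 rose and none fell, while 1 of 11 transcripts caught as ferritin fell. That transcript, TRINITY_DN31026_c0_g3, averaged 0.330 TPM at day 5 and 2.39 TPM at day 1 (adjusted p = 0.0452). Its Swiss-Prot hit is the bovine ferritin light chain, an iron-storage protein, but its annotation names a bovine histone RNA hairpin-binding protein. The call was lost in 13 of 21 alternatives, among them each library of day 5, day 1 and the unexposed worms left out (adjusted p = 0.0565 to 0.204).

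TNF receptor-associated factors are adaptors that pass signals from receptors of the tumour necrosis factor family. TRINITY_DN38564_c0_g1, named after factor 3 with a Swiss-Prot hit to factor 6, had 35.5, 37.4 and 31.8 TPM at day 5, against 11.9, 9.13 and 6.82 TPM at day 1 (log2 fold change 1.83, SE 0.21, adjusted p = 0.000494). Every day 5 library was above every day 1 library, while day 3 (19.0 ± 1.15 TPM, SD, n = 3) and unexposed worms (18.8 ± 3.32 TPM) lay between them. Of 159 tested family members this was the 1 called, beside 0.49% of all genes, and the family median was 0.12. Without overlap 14 were higher and 8 lower, beside 6.11% and 11.1% of all genes. With so many related members, reads of near-identical copies cannot be placed with certainty, and single levels are uncertain.

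The 4 rises above held in each of their 22 alternatives. The remaining 3 named rises were smaller and of abundant transcripts. TRINITY_DN33072_c3_g4, the modifier subunit of glutamate cysteine ligase, which sets the first step of glutathione synthesis, had 706, 989 and 949 TPM at day 5, against 543, 390.4 and 245 TPM at day 1 (log2 fold change 1.22, SE 0.25, adjusted p = 0.0447). The groups did not overlap, but the day 1 libraries spread more than 2-fold. The call was lost in 15 of 23 alternatives, with adjusted p up to 0.177 without day 5 replicate 2. It was lost without day 1 replicates 2 (0.126) and 3 (0.15) and day 5 replicates 1 (0.0798) and 3 (0.147), and without each control library and day 3 replicates 2 and 3 (0.0514 to 0.0621). Among the settings it was lost with median-ratio scaling (0.0824), a pseudocount of 0.1 (0.0677), no intensity trend (0.131), only the 6 libraries (0.107) and the replicate block (0.0668). Its transcript has only 234 bases, and the annotation pattern of the antioxidant list did not catch it.

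TRINITY_DN36223_c2_g3, a tetraspanin, a membrane protein that organises other proteins into patches, had 359, 342 and 376 TPM at day 5, against 177, 201 and 126 TPM at day 1 (log2 fold change 1.12, SE 0.20, adjusted p = 0.0179). The day 5 libraries lay close together and all above day 1, and day 3 stood at 227 ± 16.8 TPM. Of 19 tetraspanins it was the 1 called. TRINITY_DN26206_c0_g1, a ribosomal protein S12 of the small subunit with a plant Swiss-Prot hit, had 115, 143 and 130.3 TPM at day 5, against 72.4, 69.1 and 65.1 TPM at day 1 (log2 fold change 0.90, SE 0.18, adjusted p = 0.0337). The tetraspanin lost its call without day 1 replicates 1 and 3 and without each day 5 library (adjusted p = 0.0596 to 0.0828), and S12 lost it without each of the 6 compared libraries (adjusted p = 0.0789 to 0.158).

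**Figure D2:**
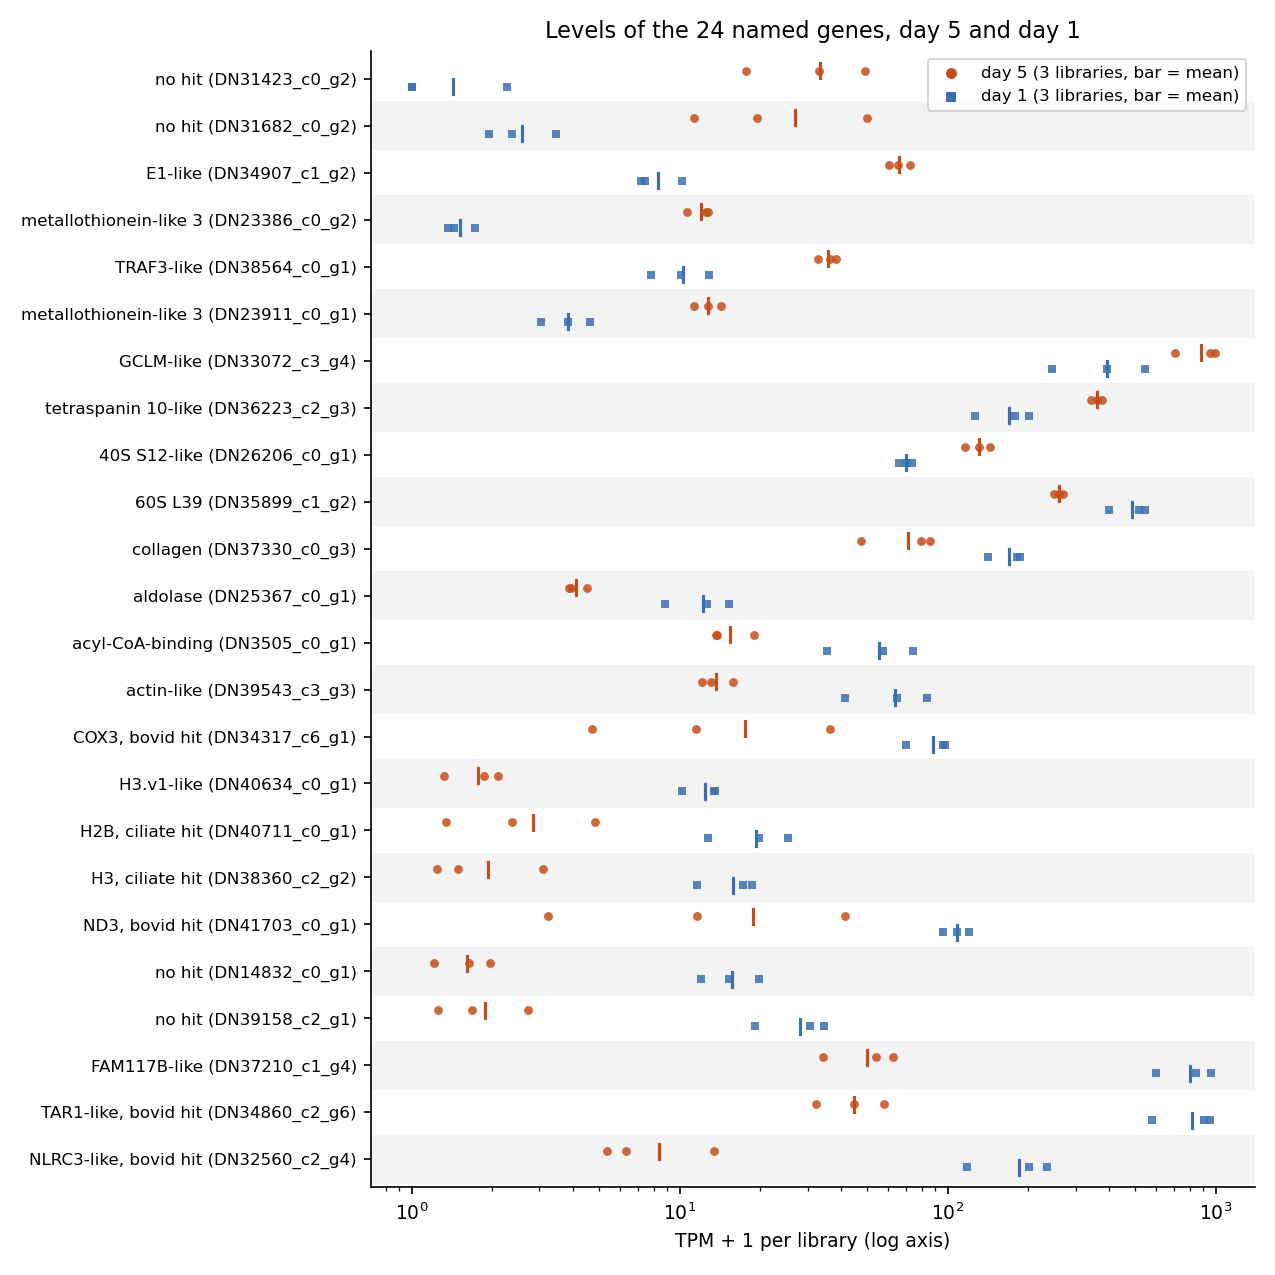
TPM + 1 per library (log axis) of the 24 genes taken by the naming rule, ordered from the largest rise to the largest fall, with day 5 libraries (circles) above day 1 libraries (squares) in each line and bars at the means. The 2 sets of points are apart in every gene, as in all 134 called genes and as the naming rule required of the largest rises and falls with a protein name. The day 5 points of the bovid-hit ND3 and COX3 spread the most among the falls.

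Of the 8 called genes with a flatworm hit, the naming rule took glutamate cysteine ligase and 1 collagen. The other 6 are named after their values were seen. TRINITY_DN32575_c0_g1, a hypothetical protein of Schistosoma, a parasitic flatworm, had 30.4, 34.3 and 32.6 TPM at day 5, against 7.19, 10.5 and 4.97 TPM at day 1 (log2 fold change 2.02, SE 0.29, adjusted p = 0.00371). It stood at 3.05 ± 0.745 TPM in unexposed worms and 18.4 ± 6.91 TPM at day 3, and its call held in all 23 alternatives. TRINITY_DN39015_c6_g3, named slc47a-7 after a transporter family that exports organic cations and drugs from cells, had 2.55, 4.59 and 3.87 TPM at day 5, against 0.36, 0.57 and 0.31 TPM at day 1 (log2 fold change 1.70, SE 0.31, adjusted p = 0.0226). All day 1 libraries were below 1 TPM and all day 5 libraries above 2 TPM, but the call was lost without each day 1 library and without day 5 replicates 2 and 3 (adjusted p = 0.0586 to 0.121). None of 79 tested xenobiotic enzymes and ABC transporters was called, and 0 of 111 genes of the solute carrier list, beside 0.49% of all genes. The annotation patterns of both lists did not catch slc47a-7. The first of these lists had a median of 0.22, with 14 members higher and 5 lower without overlap, beside 6.11% and 11.1% of all genes.

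Fibrillar collagens, the triple-helical proteins of the extracellular matrix, which planarian muscle cells secrete, included 3 that fell. TRINITY_DN37330_c0_g3 had 46.6, 78.7 and 84.8 TPM at day 5, against 181, 185 and 140.4 TPM at day 1 (log2 fold change -1.29, SE 0.24, adjusted p = 0.0232). TRINITY_DN37330_c0_g1 had 43.5, 73.4 and 72.9 TPM at day 5, against 146, 154 and 116 TPM at day 1 (log2 fold change -1.15, SE 0.23, adjusted p = 0.0431). TRINITY_DN37810_c2_g2 had 40.5, 66.0 and 71.6 TPM at day 5, against 135, 147 and 113 TPM at day 1 (log2 fold change -1.17, SE 0.23, adjusted p = 0.0346). In all 3 genes day 5 replicate 1 was the lowest library, day 1 replicate 3 was the lowest of its group, and day 3 (68.7 to 87.5 TPM on average) was close to day 5 while unexposed worms (117 to 148 TPM on average) were close to day 1.

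Of 51 tested genes that name a collagen or a collagen-modifying protein 3 fell and 0 rose. Without overlap 12 were lower and 1 higher, beside 11.1% and 6.11% of all genes. The median was -0.02, near that of all genes. It differed by hit: -0.55 over 20 with a flatworm hit, 11 of them lower and 1 higher without overlap, 0.08 over 21 with a Caenorhabditis hit, mostly cuticle collagens, and 0.02 over the other 10. The median depended on which genes were counted. A narrower pattern for collagen chains, written after the values were seen, caught 22 genes with a median of -0.52, and the word in the annotation alone caught 44 with a median of -0.02. The collagen next to the threshold, TRINITY_DN37265_c0_g1, had 42.6, 69.3 and 74.2 TPM at day 5, against 132, 146 and 109.9 TPM at day 1 (adjusted p = 0.0566). Collagens share repeated sequence, and 2 of the called ones belong to 1 assembly cluster, which makes single levels uncertain. The flatworm-hit members summed to 359, 529.8 and 540.2 TPM at day 5, against 989.9, 1092 and 812 TPM at day 1, with no overlap. The muscle list, which holds markers of the cells that secrete them, summed to 8772 ± 502 TPM at day 5 and 8940 ± 1319 TPM at day 1. The wider list of 170 matrix and adhesion genes had 1 rise, the tetraspanin, and 3 falls, the collagens, with a median of 0.07. Leaving out day 5 replicate 1 or day 1 replicate 1 or 2 ended the call of each called collagen (adjusted p = 0.102 to 0.226). Without day 1 replicate 3, day 5 replicate 2 or day 5 replicate 3, TRINITY_DN37330_c0_g1 and TRINITY_DN37810_c2_g2 lost it too (adjusted p = 0.0523 to 0.0691). TRINITY_DN37330_c0_g1 also lost it without control replicate 2 (0.0501) and day 3 replicate 3 (0.0571).

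A peptide hormone precursor also fell. TRINITY_DN28060_c0_g1, secreted peptide prohormone 18 of Schmidtea, another planarian, had 7.54, 15.3 and 13.6 TPM at day 5, against 33.7, 26.1 and 34.4 TPM at day 1 (log2 fold change -1.34, SE 0.25, adjusted p = 0.0251). All day 5 libraries lay below all day 1 libraries, and day 3 stood at 11.3 ± 2.50 TPM. The call was lost without day 1 replicates 1, 2 and 3 and day 5 replicates 1 and 3 (adjusted p = 0.051 to 0.15). The annotation pattern of the synaptic vesicle and neuropeptide list did not catch this precursor. Of the 102 genes in that list none was called, beside 0.49% of all genes. Their summed level was 1977 ± 119 TPM at day 5 and 2064 ± 319.8 TPM at day 1.

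**Figure D3:**
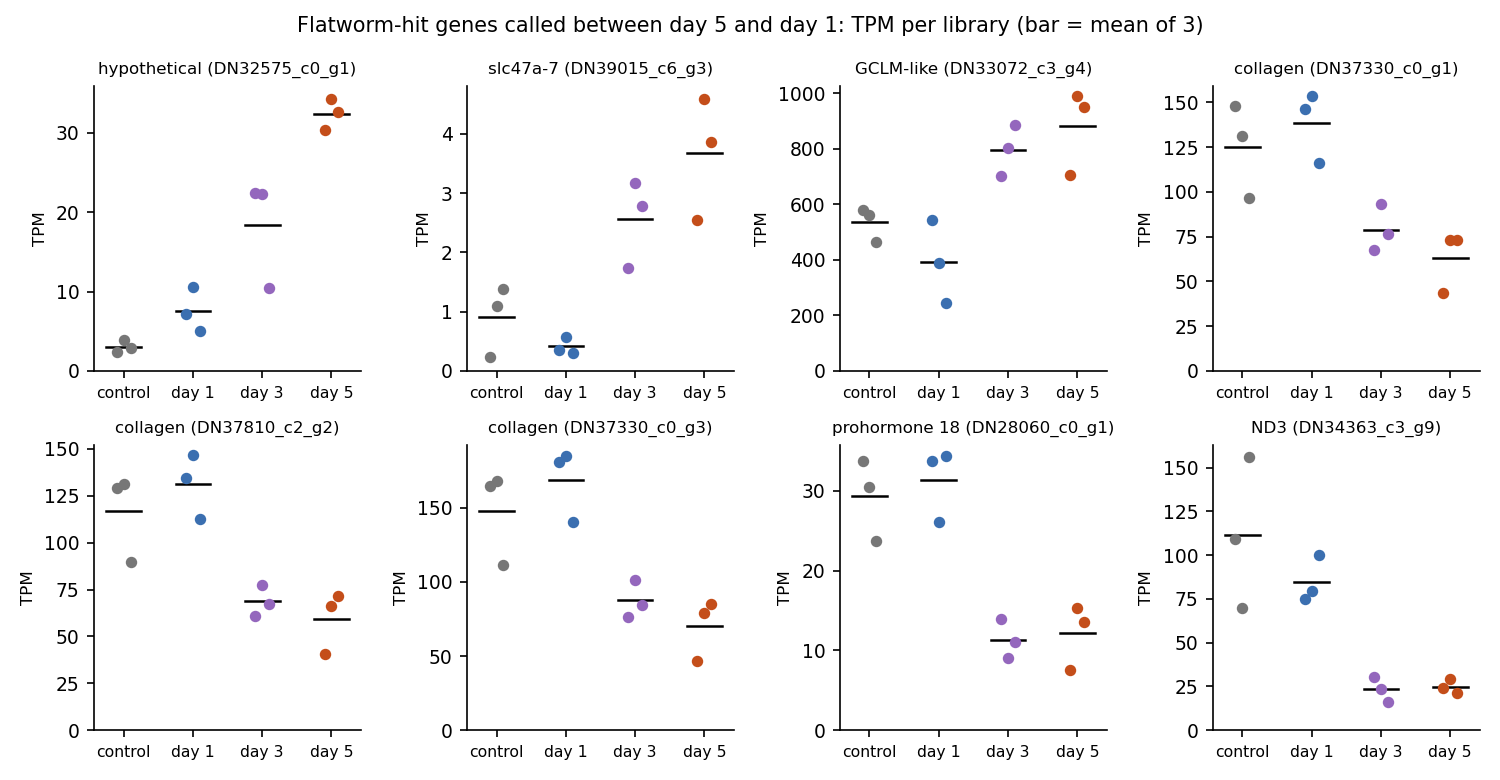
TPM per library (points) and group mean (bar) of the 8 called genes with a flatworm hit, in unexposed worms (control) and after 1, 3 and 5 days of exposure, each panel with its own linear axis from 0. The 3 rises end above day 1 and the 5 falls below it, and the 3 collagens share one shape.

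The mitochondrial genome codes for core subunits of the respiratory complexes. With a flatworm hit, ND3 of complex I (TRINITY_DN34363_c3_g9) had 23.9, 29.1 and 21.5 TPM at day 5, against 75.2, 79.3 and 100.2 TPM at day 1 (log2 fold change -1.73, SE 0.28, adjusted p = 0.00873). The day 5 libraries lay far below those of day 1, day 3 stood at 23.4 ± 7.25 TPM, and leaving out day 1 replicate 3 or day 5 replicate 3 ended the call (adjusted p = 0.0503 and 0.0524). All 10 tested mitochondrially encoded transcripts with a flatworm hit were lower at day 5 without overlap, but ND3 was the 1 called. Their fold changes ran from -1.73 to -0.94 on the log2 scale, with a median of -1.35. The most abundant of them, COX2 of complex IV (TRINITY_DN39458_c5_g8), had 54.2, 76.0 and 90.8 TPM at day 5, against 185, 202 and 232 TPM at day 1 (log2 fold change -1.50, SE 0.34, adjusted p = 0.0708). Their sum was 141, 145 and 152 TPM at day 5, against 351, 395 and 489 TPM at day 1, with no overlap.

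Mitochondrial transcripts with a bovid hit were also lower. Of 8 tested, 6 fell and all 8 were lower without overlap, with a median of -2.53. ND3 with a bovid hit (TRINITY_DN41703_c0_g1) had 2.22, 40.2 and 10.7 TPM at day 5, against 107, 119 and 94.8 TPM at day 1 (log2 fold change -3.22, SE 0.63, adjusted p = 0.0346). COX3 of complex IV (TRINITY_DN34317_c6_g1) had 3.72, 35.4 and 10.5 TPM at day 5, against 96.7, 95.2 and 68.7 TPM at day 1 (log2 fold change -2.79, SE 0.52, adjusted p = 0.024). In both genes day 5 replicate 2 was far above the other day 5 libraries and replicate 1 the lowest. Both calls were lost without day 5 replicates 1 and 3 and without each day 1 library (adjusted p = 0.0587 to 0.118). For ND3, leaving out control replicate 3 did the same (adjusted p = 0.0503).

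Mitochondrial transcripts with hits to other animals had medians near or above 0. The 8 transcripts with a mouse or rat hit had a median of 0.65, with all 8 values above 0 and 0 called. The 5 with a Caenorhabditis hit had a median of 0.006 with 0 called, and the 8 with a human or other primate hit a median of 0.008. In the primate set 1 gene fell, ND1 (TRINITY_DN35653_c0_g2), with 3.84, 8.22 and 6.08 TPM at day 5, against 32.2, 22.0 and 29.9 TPM at day 1 (log2 fold change -2.08, SE 0.42, adjusted p = 0.0414). Its call was lost in 12 of 22 alternatives, among them each of the 6 compared libraries and control replicate 3 left out (adjusted p = 0.0563 to 0.222). In the list as a whole 8 of 40 fell and 0 rose, with a median of -0.26. All bovid-hit transcripts summed to 26333, 9686 and 11825 TPM at day 5, against 33626, 25846 and 30036 TPM at day 1, which overlap (exact permutation p = 0.2). Without the most abundant one they summed to 339 ± 151 TPM at day 5 and 2527 ± 344 TPM at day 1 (exact permutation p = 0.1). Plant-hit (p = 0.3) and flatworm-hit sums (p = 0.5), by the same exact test, overlapped too. Markers of vertebrate food tissue summed to 35.6 ± 5.37 TPM at day 5 and 71.2 ± 10.1 TPM at day 1. Their part in the mitochondrial result was not tested. The nuclear-encoded subunits of the same complexes had 0 of 78 called, with 3 higher and 22 lower without overlap and a median of -0.16 (0.04 after the rescaling; relative to all genes -0.13, and -0.07 after it). The mitochondrial ribosome and import list had 0 of 68 called, with 29 lower and 2 higher without overlap and a median of -0.31. Over all genes 11.1% were lower and 6.11% higher without overlap.

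**Figure D4:**
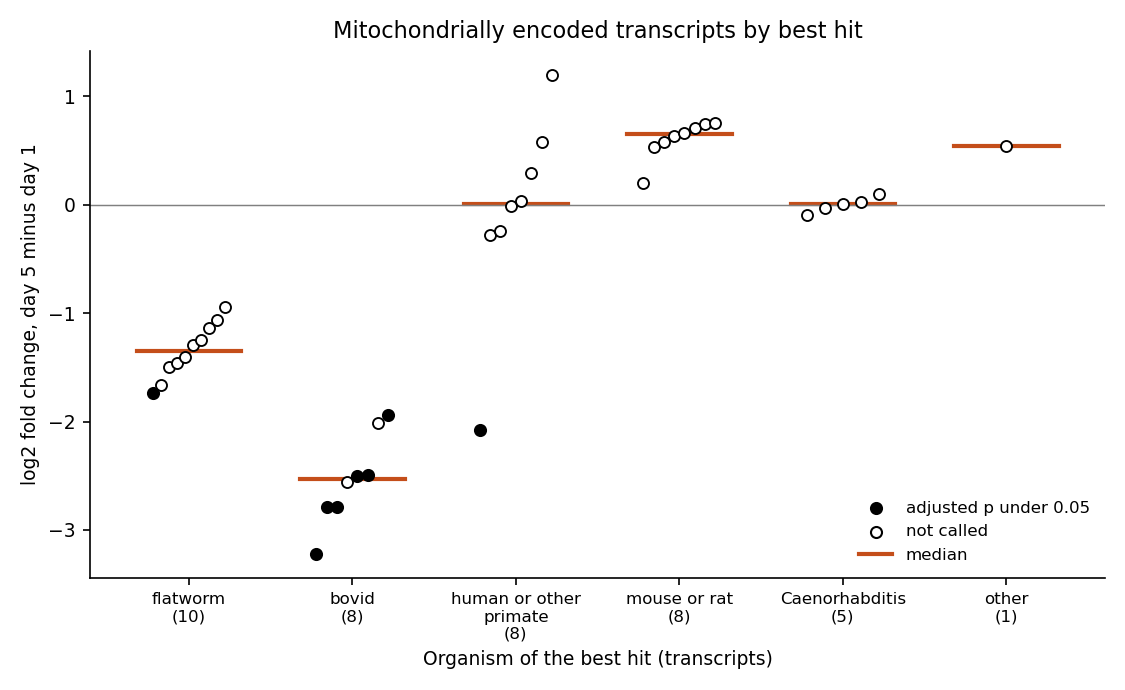
Log2 fold change (day 5 minus day 1, y axis) of the 40 tested mitochondrially encoded transcripts, grouped by the organism of the best hit (x axis, number of transcripts in brackets), with called genes filled and the group median as a bar. The medians stand at -1.35 for flatworm hits and -2.53 for bovid hits, and at 0.65 for mouse or rat hits.

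Histones package DNA into chromatin and are made in bulk during DNA replication, and 6 of the 48 tested fell. Histone H3 with a ciliate Swiss-Prot hit (TRINITY_DN38360_c2_g2) had 2.08, 0.24 and 0.49 TPM at day 5, against 17.6, 16.2 and 10.6 TPM at day 1 (log2 fold change -3.12, SE 0.31, adjusted p = 0.000115). An H2B transcript, also with a ciliate hit (TRINITY_DN40711_c0_g1) had 3.83, 0.34 and 1.38 TPM at day 5, against 18.8, 24.4 and 11.7 TPM at day 1 (log2 fold change -2.90, SE 0.37, adjusted p = 0.00123). An H3.v1-like transcript whose hit is a bird protein (TRINITY_DN40634_c0_g1) had 0.86, 0.32 and 1.11 TPM at day 5, against 12.6, 12.4 and 9.25 TPM at day 1 (log2 fold change -2.83, SE 0.27, adjusted p = 8.43e-05). In each of the 3, day 1 was already below unexposed worms (23.7, 40.2 and 27.6 TPM on average) and day 3 (0.493, 2.11 and 1.03 TPM on average) was near day 5, and each call held in all 22 alternatives.

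No histone rose, and 27 were lower and 1 higher without overlap, beside 11.1% and 6.11% of all genes. By hit, 5 of 10 with a ciliate hit fell (8 lower without overlap, median -1.48), 0 of 14 with a flatworm hit (6 lower, median -0.27) and 1 of 21 with other hits (13 lower, median -0.58). The difference between these sets was not tested. A flatworm-hit member, histone H2A.1 (TRINITY_DN37185_c1_g5), stood at 276, 352 and 335 TPM at day 5, against 514, 491 and 466 TPM at day 1 (log2 fold change -0.62, SE 0.17, adjusted p = 0.161). Ciliate-hit transcripts of every kind summed to 527 ± 27.6 TPM at day 5 and 796 ± 161 TPM at day 1 (exact permutation p = 0.1), and 40 of 72 tested were lower without overlap against 0 higher. Their part in the histone result was not tested. Among them, caltractin, a centrin of ciliary basal bodies (TRINITY_DN39555_c1_g10), fell to 0.12, 0.64 and 0.95 TPM at day 5, against 6.66, 6.22 and 5.13 TPM at day 1 (adjusted p = 0.00157).

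A set of short transcripts that were abundant at day 1 showed the deepest falls among the named proteins. TRINITY_DN32560_c2_g4, with a bovid hit and a Swiss-Prot hit to NLRC3, a regulator of innate immune signalling, had 5.32, 12.4 and 4.38 TPM at day 5, against 233, 117 and 199 TPM at day 1 (log2 fold change -4.53, SE 0.78, adjusted p = 0.0145). TRINITY_DN34860_c2_g6, with a bovid hit and a Swiss-Prot hit to TAR1, which in yeast lies antisense to ribosomal RNA, had 31.2, 56.7 and 43.9 TPM at day 5, against 905, 579.6 and 953 TPM at day 1 (log2 fold change -4.19, SE 0.70, adjusted p = 0.0118). TRINITY_DN37210_c1_g4, a FAM117B-like transcript, had 33.2, 61.3 and 52.8 TPM at day 5, against 839.9, 597 and 956 TPM at day 1 (log2 fold change -4.01, SE 0.65, adjusted p = 0.00996). The day 1 means were 16.2 to 24.9 times those of day 5, with day 1 replicate 2 the lowest of its group in each.

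The same transcripts varied widely in the other groups. The bovid transcript TRINITY_DN32560_c2_g4 had 399.5, 53.2 and 89.3 TPM in unexposed worms and 53.9, 2.78 and 17.5 TPM at day 3, with replicate 1 the highest in both groups. It lost its call without day 1 replicates 1 and 3 and day 5 replicates 1 and 3 (adjusted p = 0.058 to 0.0798). TRINITY_DN34860_c2_g6 and TRINITY_DN37210_c1_g4 lost theirs without day 1 replicate 3 and day 5 replicate 1 (adjusted p = 0.0503 to 0.0744), and all 3 lost it with quantile normalization (adjusted p = 0.0501 to 0.0538). A pair of hypothetical proteins with Trichinella hits, chosen after their values were seen, also fell. TRINITY_DN31907_c0_g9 stood at 332 ± 86.4 TPM at day 5 and 4806 ± 1122 TPM at day 1 (log2 fold change -3.85, adjusted p = 0.0148; 0.0542 to 0.0828 without day 5 replicates 1 and 3 and day 1 replicates 1 and 3). TRINITY_DN33560_c0_g3, the deepest fall of all called genes, stood at 2.27 ± 1.15 TPM at day 5 and 89.0 ± 25.9 TPM at day 1 (log2 fold change -4.81, adjusted p = 0.00653). Bovid apolipoprotein A-II, a lipid carrier of blood (TRINITY_DN40762_c0_g1), had 0, 0.09 and 0.09 TPM at day 5, against 1.52, 2.42 and 3.59 TPM at day 1 (adjusted p = 0.0226). That call was lost without day 1 replicates 2 and 3 and without each day 5 library (adjusted p = 0.0688 to 0.134).

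Some metabolic and cytoskeletal genes fell. A beta-actin-like transcript with a fish hit (TRINITY_DN39543_c3_g3) had 12.0, 11.1 and 14.8 TPM at day 5, against 63.7, 40.5 and 82.98 TPM at day 1 (log2 fold change -2.17, SE 0.29, adjusted p = 0.00167), and its call held in all 22 alternatives. The main beta-actin of Dugesia japonica (TRINITY_DN36831_c0_g3) stood at 3053 ± 215 TPM at day 5 and 2496 ± 377 TPM at day 1 (adjusted p = 0.71); reads of actins may be shared. Acyl-CoA-binding protein, a carrier of activated fatty acids (TRINITY_DN3505_c0_g1), had 12.8, 12.7 and 17.9 TPM at day 5, against 73.0, 56.4 and 34.5 TPM at day 1 (log2 fold change -1.80, SE 0.31, adjusted p = 0.0145). Aldolase, which splits the sugar bisphosphate of glycolysis (TRINITY_DN25367_c0_g1, plant Swiss-Prot hit), had 3.52, 2.86 and 2.94 TPM at day 5, against 14.3, 11.6 and 7.79 TPM at day 1 (log2 fold change -1.54, SE 0.29, adjusted p = 0.0226). The groups were apart in all 3 of the falling genes. The carrier lost its call without day 1 replicates 1 and 2 and day 5 replicates 1 and 2 (adjusted p = 0.0661 to 0.0879), and aldolase without day 1 replicates 1 and 2 and each day 5 library (adjusted p = 0.0784 to 0.138).

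Of 88 glycolysis and citric acid cycle genes 3 fell and 0 rose, with a median of -0.13 (0.03 after the rescaling; relative to all genes -0.11, and -0.08 after it). The first was aldolase, above. The next was the acetyltransferase subunit of pyruvate dehydrogenase, which links glycolysis to the citric acid cycle (TRINITY_DN37768_c0_g2), at 37.4 ± 6.07 TPM at day 5 and 77.6 ± 9.78 TPM at day 1 (adjusted p = 0.0245). The last was a glyceraldehyde-3-phosphate dehydrogenase of glycolysis (TRINITY_DN33093_c2_g2), at 0.493 TPM at day 5 and 4.35 TPM at day 1 on average (adjusted p = 0.0138). Both lost the call without day 1 replicates 1 and 2 and without each day 5 library (adjusted p = 0.0506 to 0.163). Other falls were chosen after their values were seen. Chk2-like kinase, which acts in the DNA damage checkpoint (TRINITY_DN32247_c0_g1), fell to 13.6 ± 2.86 TPM at day 5, against 28.9 ± 4.32 TPM at day 1 (adjusted p = 0.0394). Selenoprotein W, a small redox protein (TRINITY_DN38018_c1_g2), fell to 12.6 ± 2.51 TPM at day 5, against 26.9 ± 3.77 TPM at day 1 (adjusted p = 0.0494). A cyclophilin B-like folding enzyme (TRINITY_DN30396_c0_g1) fell to 135 ± 32.6 TPM at day 5, against 322 ± 59.0 TPM at day 1 (adjusted p = 0.0433). These 3 calls were lost in 11 to 17 of 22 alternatives, among them each of the 6 compared libraries left out (adjusted p = 0.0533 to 0.266). Single other libraries also ended them: control replicates 2 and 3 for the kinase, each control and day 3 replicate 3 for selenoprotein W, and day 3 replicates 2 and 3 for the folding enzyme (adjusted p = 0.0501 to 0.0642).

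The cytosolic ribosome list gave 1 rise, S12 above, and 1 fall among 330 tested genes, beside 0.49% of all genes called. Ribosomal protein L39 of the large subunit (TRINITY_DN35899_c1_g2) had 258, 268 and 248 TPM at day 5, against 545, 517 and 399.8 TPM at day 1 (log2 fold change -0.90, SE 0.18, adjusted p = 0.037). The day 5 libraries lay close together and all below day 1. The call was lost without day 1 replicates 1 and 2 and each day 5 library (adjusted p = 0.107 to 0.175), without control replicate 3 and day 3 replicate 3 (adjusted p = 0.0503 and 0.0563), and in 6 other settings. Of the list, 89 members were lower and 17 higher without overlap, beside 11.1% and 6.11% of all genes. The median was -0.18. It differed by hit, at -0.71 over 38 ciliate-hit members, -0.37 over 40 flatworm-hit members, -0.12 over 195 with other hits and 0.27 over 56 plant-hit members. The flatworm-hit members summed to 13684 ± 1180 TPM at day 5 and 17728 ± 2055 TPM at day 1.

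Digestive enzymes summed to 2218 ± 194 TPM at day 5 and 1568 ± 249.8 TPM at day 1, and lysosomal proteases to 3969 ± 451 TPM at day 5 and 2641 ± 822 TPM at day 1. None of the 122 digestive and 37 lysosomal genes was called, beside 0.49% of all genes. Without overlap 19 digestive genes were higher and 3 lower, and 7 lysosomal genes were higher and 2 lower. Over all genes these shares were 6.11% higher and 11.1% lower. Planarian gut phagocytes and goblet cells make these enzymes, and some members caught by the digestive pattern are other trypsin-related proteins. A trypsin-like serine protease of Dugesia japonica (TRINITY_DN37049_c0_g2) had 692, 625 and 503 TPM at day 5, against 390, 135 and 192 TPM at day 1 (log2 fold change 1.47, SE 0.37, adjusted p = 0.109). The groups did not overlap, and day 1 replicate 1 was the highest of its group. Of the 6 trypsin-like proteases with a hit in this species, a subset formed after values were seen, 5 were higher without overlap. Of all flatworm-hit genes 6.69% were. The 6 summed to 923, 834 and 689 TPM at day 5, against 534, 212 and 271 TPM at day 1.

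Cathepsins are lysosomal cysteine proteases, and 0 of 29 were called, with 17 values above 0 and 12 below. Cathepsin L1-like TRINITY_DN34166_c8_g1 had 711, 616 and 561 TPM at day 5, against 311, 319 and 166 TPM at day 1 (log2 fold change 1.296, SE 0.30, adjusted p = 0.0763), with no overlap. Cathepsin B (TRINITY_DN39563_c3_g9) stood at 61.7 ± 5.83 TPM at day 5 and 32.4 ± 9.83 TPM at day 1 (adjusted p = 0.136). Of the cathepsins 6 were higher and 2 lower without overlap, beside 6.11% and 11.1% of all genes, with a median of 0.23. Of the 33 flatworm-hit digestive genes 8 were higher and 0 lower without overlap, against 6.69% and 12.2% of all flatworm-hit genes, and their median was 0.30.

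None of the genes in the neoblast, DNA replication, cyclin and DNA repair lists was called, beside 0.49% of all genes. These lists did not catch the called histones or the Chk2-like kinase given above. Of 39 neoblast and germ granule markers 11 were lower and 0 higher without overlap, beside 11.1% and 6.11% of all genes. Those 11 were among the 30 markers with a flatworm hit, which had a median of -0.19. Of all flatworm-hit genes 12.2% were lower without overlap. The list median was -0.10. The rescaling turned that median to 0.04, but relative to all genes it was -0.07 in both. Ribonucleotide reductase supplies DNA precursors, and its small subunit (TRINITY_DN35213_c3_g1) had 8.79, 9.92 and 11.01 TPM at day 5, against 18.6, 20.3 and 16.97 TPM at day 1 (log2 fold change -0.85, SE 0.19, adjusted p = 0.0716). Proliferating cell nuclear antigen, the clamp of DNA polymerase (TRINITY_DN29941_c0_g1), stood at 7.29 ± 1.22 TPM at day 5 and 11.5 ± 1.25 TPM at day 1 (adjusted p = 0.241), and the vasa-like helicase DjVLGA (TRINITY_DN35646_c1_g2) at 29.1 ± 4.96 TPM at day 5 and 44.7 ± 5.13 TPM at day 1 (adjusted p = 0.226). All 3 were apart between the groups and were highest in unexposed worms (30.3 ± 2.08, 15.2 ± 0.929 and 61.8 ± 9.80 TPM). The DNA replication list had 16 lower and 1 higher without overlap among 52 (median -0.19; relative to all genes -0.17, and -0.16 after the rescaling), and 0 of 109 cyclin and mitosis genes and 0 of 44 DNA repair genes were called.

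Calls in the chaperone and antioxidant lists are read beside 0.49% of all genes called. The called ligase subunit, selenoprotein W and metallothionein-like transcripts given above are not in these lists. The small heat shock protein TRINITY_DN38028_c0_g1, a chaperone that binds unfolding proteins, had 246, 184 and 164 TPM at day 5, against 126, 118 and 119.8 TPM at day 1 (log2 fold change 0.68, SE 0.27, adjusted p = 0.364), with unexposed worms at 25.4 ± 5.15 TPM. The day 5 values lay above those of day 1 without overlap but did not pass the test. Of 95 HSP70, HSP90, DnaJ and chaperonin genes 0 were called, with 11 higher and 13 lower without overlap, beside 6.11% and 11.1% of all genes. Of 91 antioxidant and glutathione enzymes 1 rose, a glutathione S-transferase with a plant Swiss-Prot hit (TRINITY_DN9457_c0_g1), with 5.09, 4.39 and 3.52 TPM at day 5, against 0.04, 0.06 and 0.05 TPM at day 1 (log2 fold change 2.33, SE 0.26, adjusted p = 0.000325). All day 1 and all unexposed libraries lay below 0.1 TPM for it. The abundant planarian glutathione S-transferase 1 (TRINITY_DN37393_c1_g6) had 2521, 2859 and 2791 TPM at day 5, against 2465, 1631 and 961 TPM at day 1 (adjusted p = 0.312). The antioxidant list leaned lower, with 18 members lower and 4 higher without overlap, beside 11.1% and 6.11% of all genes. Its median was -0.11. Its 21 flatworm-hit members had 7 lower and 1 higher without overlap, with a median of -0.16.

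Transcripts without a hit included the largest rise. TRINITY_DN31423_c0_g2, with 212 bases, had 48.1, 32.1 and 16.6 TPM at day 5 and was listed at 0, 1.27 and 0 TPM at day 1 (log2 fold change 4.54, SE 0.40, adjusted p = 3.76e-05); it was listed at 0 in all 3 unexposed libraries. TRINITY_DN31682_c0_g2 had 18.4, 49.0 and 10.3 TPM at day 5, against 1.36, 0.95 and 2.46 TPM at day 1 (log2 fold change 3.14, SE 0.46, adjusted p = 0.00394; 0.0834 with a pseudocount of 0.1). TRINITY_DN39158_c2_g1 had 0.68, 0.26 and 1.71 TPM at day 5, against 33.5, 29.7 and 18.1 TPM at day 1 (log2 fold change -3.93, SE 0.28, adjusted p = 8.38e-06), after 121 ± 9.80 TPM in unexposed worms. TRINITY_DN14832_c0_g1 had 0.21, 0.64 and 0.97 TPM at day 5, against 18.7, 14.3 and 10.98 TPM at day 1 (log2 fold change -3.28, SE 0.27, adjusted p = 2.8e-05). The last stood at 3.69 ± 1.11 TPM at day 3 and 10.5 ± 2.17 TPM in unexposed worms. Its mean was highest at day 1, but its lowest day 1 library was near the unexposed mean.

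Across the 40 lists, 39 had tested members; the shikimate list had none. The rescaling moved list medians together with that of all genes (0.11 when rescaled, -0.03 as deposited), so each is read against it. Several lists had medians above that of all genes with 0 genes called. Their counts stand beside 6.11% of all genes higher and 11.1% lower without overlap, and some are near those shares. The 223 MAP kinase, PI3K-TOR and insulin genes had a median of 0.15 with 22 higher and 2 lower without overlap. The 124 autophagy genes had 0.13 with 23 higher and 14 lower, and the 91 neurotransmitter genes 0.13 with 8 higher and 1 lower. Splicing (129 genes, median -0.12, 29 lower and 5 higher), proteasome (47 genes, -0.12, 13 and 1) and tubulin lists (40 genes, -0.15, 8 and 1) lay below it with 0 called. After the rescaling the first 2 medians turned to 0.07 and that of tubulins to 0.05, all still below that of all genes (0.11). Among innexins, which form invertebrate gap junctions, 7 of 33 were higher and 0 lower without overlap with 0 called, led by a pannexin (TRINITY_DN34689_c1_g2) at 83.4 ± 4.56 TPM at day 5 and 39.9 ± 12.8 TPM at day 1 (adjusted p = 0.085).

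Further lists gave 0 calls, beside 0.49% of all genes called. Their numbers of genes and medians were cell death regulators (67 genes, 0.04), translation factors (140, -0.01), endoplasmic reticulum folding (96, -0.04), motile cilia (93, -0.02), ion channels (120, 0.08), Wnt and other patterning genes (88, 0.07), transcription factors (224, 0.06) and transposons (273, -0.03). The negative medians among them turned positive after the rescaling (0.09 to 0.16), as did that of all genes. The lipid metabolism list had 1 fall, the acyl-CoA-binding protein, among 203 genes (0.06), and the muscle list 1 fall, the actin-like transcript, among 78 (0.09). The ciliary list summed to 1388 ± 117 TPM at day 5 and 1859 ± 206 TPM at day 1, with 13 of 93 lower and 0 higher without overlap, where 11.1% of all genes were lower.

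**Figure D5:**
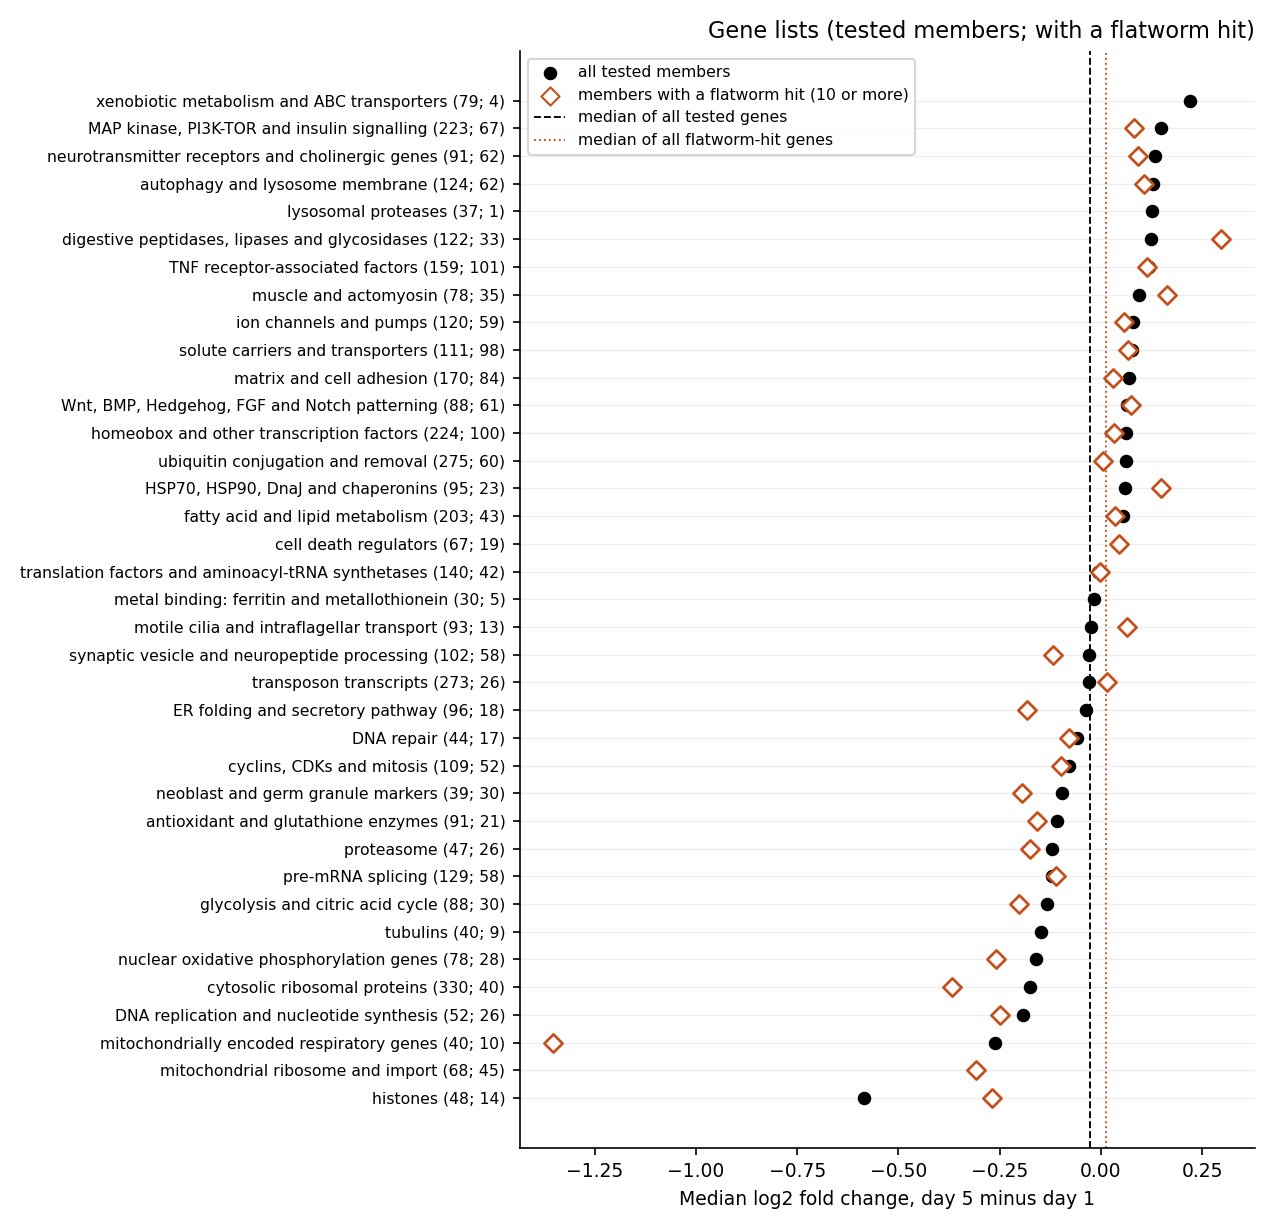
Median log2 fold change (day 5 minus day 1, x axis) of each list with at least 20 tested members, for all members (filled circles) and for members with a flatworm hit where there are at least 10 (open diamonds); brackets give tested members and those with a flatworm hit. Dashed and dotted lines mark the medians of all tested genes (-0.03) and of all flatworm-hit genes (0.01), and the flatworm-hit mitochondrially encoded genes stand apart at -1.35.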

How the data were processed

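Polyadenylated RNA of whole worms was sequenced per the labels' protocols. The authors ran Salmon, edgeR, FastQC and cutadapt, per the submitters' processing notes, which name no version and no setting. The deposited table holds TPM as far as its values show: each library sums to 978610 to 986584, and the header names no unit. It also gives transcript lengths in bases, annotation names and Swiss-Prot hits.

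TPM were taken as log2(TPM + 1), since the table holds no counts, keeping genes that reached 1 TPM in 3 or more libraries. The 12 libraries in their 4 groups entered a single model in limma (version 3.58.1, R 4.3.3), whose variance prior followed the mean level; no minimum fold was set. P-values were adjusted by the Benjamini-Hochberg method across every tested gene, and 0.05 was the limit for a call. Transcript shares and summed hit classes of the 6 libraries were compared with two-sided exact permutation tests; sums over lists went through the same test, but their p-values are not printed, because the lists were chosen with results known. Groups come from the labels; 0 per-sample columns were left out.

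Lists are patterns on annotation text and are described by counts and medians. The comparison, its members and the lists were chosen with earlier results of these data known, and 1 exclusion ("succinate", from the mitochondrially encoded list) was added after values were seen. Subsets of lists (collagens, tetraspanins, innexins, trypsin-like proteases, cathepsins, metallothioneins, ferritins and splits by hit) were also formed after values were seen; for collagens 3 patterns were tried and all are given. Hit classes follow the species of the annotation hit (flatworm, bovid), then of the Swiss-Prot hit (ciliate, plant). Named genes were up to 8 rises and 8 falls, by size, among called genes without overlap that averaged 5 TPM or more and have a protein name; in each list the called member that changed most each way; and the top 2 rises and falls without a hit. The alternatives were other scalings, filters, pseudocount, variance model, fold minimum, samples, replicate block, flatworm-hit genes and each library left out.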

Additional observations from a re-analysis of the deposited data

How the results depend on the processing

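Of 530 values of the 24 named genes under 23 alternatives, 0 turned direction, 433 stayed on the same side of the threshold and 97 passed out of it; 11 genes were called in every alternative run on them. The count of 134 calls (27 higher, 107 lower) shared 94 genes with the 187 after quantile normalization (86 higher), 88 with the 143 after median-ratio scaling (51 higher), 91 with the 123 after rescaling without the 2 most abundant transcripts (59 higher, 64 lower) and 72 with the 90 without an intensity trend (60 lower). Only genes with a flatworm hit gave 7 (3 higher, 4 lower), all among the 8. Leaving out 1 of the 6 compared libraries gave 50 to 77 calls, 12 to 22 higher and 38 to 65 lower, and leaving out 1 of the other 6 gave 100 to 163, 23 to 33 higher and 77 to 130 lower. The replicate block gave 121 calls (32 higher, 89 lower), 105 shared. Same-numbered day 5 and day 1 libraries deviated with correlations of -0.02, -0.03 and 0.01, and only replicate 3 correlated best with its own number. Correlations of deviations within groups of 3 cannot tell whether same-numbered libraries shared a culture or batch, which the labels do not say. No filter gave 142 calls, a minimum of 5 TPM 134, a pseudocount of 0.1 105, a log2 fold change of at least 1 129, and only the 6 libraries 123. The cause of these shifts was not tested, and depth limits cannot be given from TPM.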
